A study of Mus musculus with 9 samples.

Results

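Chaperones and co-chaperones were taken as the protein-coding genes whose symbols mark the HSP70, HSP110, HSP90, HSP60 and HSP10, small heat shock protein, DNAJ, BAG and CCT families, with the inducible pair Hspa1a and Hspa1b left out. The rule used names only, but it was set with earlier results of these data known. The pair left out matches the same symbols, and both of its genes were called lower, as given below. The rule found 80 genes among 19769 in the RNA table, of which 15118 were protein-coding. Primary mouse embryonic fibroblasts (MEFs) homozygous for Myc-Egfp, a fusion of MYC and green fluorescent protein made at the endogenous Myc locus, were sorted into low-MYC and high-MYC cells by GFP signal, and RNA from 2 libraries per group was sequenced. All cells of both groups had been kept for at most 3 passages, treated with 20 µM MG-132, an inhibitor of the proteasome, for 6 h before sorting, and seeded overnight after it. No library from cells without MG-132 entered the comparison. FUBP1 ChIP-seq came from primary MEFs at steady state, and TACh-seq, which reads nuclease-accessible chromatin, from 4 samples labelled WT or KOKD. KOKD stands for Fubp1 knockout with knockdown of Fubp2 by siRNA. The replicates of a group are technical, so p-values compare these libraries and do not measure spread between embryos or cultures.

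HSP70 proteins bind short stretches of unfolded polypeptide and release them in cycles of ATP hydrolysis. J-domain proteins of the DNAJ family start the cycle, whereas BAG and HSP110 proteins exchange its nucleotide. HSP90 finishes the folding of kinases and receptors, the chaperonins TRiC and HSP60 enclose whole proteins in a chamber, and small heat shock proteins hold unfolded proteins without ATP. Heat shock factor 1 (HSF1) raises many of the cytosolic genes when misfolded protein accumulates, proteasome inhibition included, and the unfolded protein response raises the chaperones of the endoplasmic reticulum (ER).

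The promoters of the chaperone genes carry letters that these response pathways are known to read. RefSeq promoters of GRCm38.p6, 250 bases before to 50 after a start, matched 64 of the 80 members with 84 sequences. The ER stress element, searched on both strands as CCAAT, then 9 bases, then CCACG, was found in 3 of these 84 (3.57%) and in 39 of all 32851 promoters (0.119%). Its 3 holders were Hspa5, which encodes BiP, the main HSP70 of the ER, Hsp90b1, the ER HSP90 also called GRP94, and Dnajc3, a J-domain protein of the ER. They are shown because all 3 rose more than the median gene, by values given with the ER chaperones. Only the bases before each start are printed, 5′ to 3′ on the strand of the gene, and capitals mark the element, at chr2:34771840-34772089 for Hspa5, chr10:86705445-86705694 (minus strand) for Hsp90b1 and chr14:118937682-118937931 for Dnajc3.
Hspa5: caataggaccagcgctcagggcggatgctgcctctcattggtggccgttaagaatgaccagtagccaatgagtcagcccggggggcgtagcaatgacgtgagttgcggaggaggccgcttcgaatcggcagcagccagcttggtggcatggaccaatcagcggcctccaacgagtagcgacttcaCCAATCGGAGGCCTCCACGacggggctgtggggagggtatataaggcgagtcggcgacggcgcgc
Hsp90b1: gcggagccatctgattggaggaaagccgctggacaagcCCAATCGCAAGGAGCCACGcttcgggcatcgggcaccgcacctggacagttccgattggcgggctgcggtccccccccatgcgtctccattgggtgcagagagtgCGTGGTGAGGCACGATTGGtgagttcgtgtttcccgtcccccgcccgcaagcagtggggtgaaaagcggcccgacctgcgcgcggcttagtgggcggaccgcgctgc
Dnajc3: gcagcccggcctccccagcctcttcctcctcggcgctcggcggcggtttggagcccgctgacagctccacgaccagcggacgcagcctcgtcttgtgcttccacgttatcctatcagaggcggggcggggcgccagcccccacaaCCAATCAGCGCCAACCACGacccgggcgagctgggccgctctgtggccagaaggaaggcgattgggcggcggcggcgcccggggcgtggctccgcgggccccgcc

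The element began at position -65 in Hspa5, at -105 in Dnajc3, and at -212 and -107 in Hsp90b1, where the second copy lies on the other strand. Hsp90b1 was thus the member with 2 exact copies. Inexact copies were not searched for, so the number of elements in each promoter may be larger.

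Heat shock elements alternate the unit GAA with its reverse complement TTC, spaced by 2 bases. A 3-unit element, in which GAANNTTC and TTCNNGAA share their middle unit, was found in 6 of the 84 member promoters (7.14%) and in 198 of all promoters (0.603%). The 2-unit form, GAANNTTC or TTCNNGAA, is palindromic on the other strand and includes the longer form. It was found in 21.4% of member promoters and 15.1% of all promoters. Members with the 3-unit form were Hspe1 and Hspd1, the mitochondrial HSP10 and HSP60, Hsph1, the stress-inducible HSP110, and Dnajb6, a suppressor of protein aggregation. Dnajb6 and Hsph1 had it in 2 promoters each, so the 6 promoters stand for only these 4 members. The sequences of Hspe1 (chr1:55087898-55088147) and Dnajb6 (chr5:29735648-29735897) show the longer form in capitals, and Hspb1 (chr5:135887669-135887918), the small heat shock protein HSP27, shows separate 2-unit copies beginning at -117 and -97.
Hspe1: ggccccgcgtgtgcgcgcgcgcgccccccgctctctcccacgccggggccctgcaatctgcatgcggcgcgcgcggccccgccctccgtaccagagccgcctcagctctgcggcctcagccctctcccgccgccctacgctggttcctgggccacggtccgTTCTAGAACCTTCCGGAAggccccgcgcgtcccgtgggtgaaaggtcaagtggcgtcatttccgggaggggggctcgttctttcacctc
Dnajb6: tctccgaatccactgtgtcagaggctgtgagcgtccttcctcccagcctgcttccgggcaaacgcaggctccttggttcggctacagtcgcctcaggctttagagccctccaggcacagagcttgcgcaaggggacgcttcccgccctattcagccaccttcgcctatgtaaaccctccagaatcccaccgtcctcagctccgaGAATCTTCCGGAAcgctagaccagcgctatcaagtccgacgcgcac
Hspb1: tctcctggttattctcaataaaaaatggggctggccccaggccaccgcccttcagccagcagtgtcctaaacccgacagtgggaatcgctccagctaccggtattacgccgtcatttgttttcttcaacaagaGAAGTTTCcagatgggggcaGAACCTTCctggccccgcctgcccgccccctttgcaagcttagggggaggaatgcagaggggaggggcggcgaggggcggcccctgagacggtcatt

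In Hspe1 the 3-unit matches began at -89 and -84 and shared bases, so that 4 units ran without a break, and in Dnajb6 the match began at -46. The E-box CACGTG, the sequence that MYC with its partner MAX is known to bind, stood in 8.33% of member promoters and 7.15% of all promoters. These matches are descriptions of the letters in these windows and not binding data.

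The deposited RNA values are fragments per kilobase (FPK) divided by the spike-in score of the library, so they are relative to cell number. Their sums were 46321 and 48291 in the low-MYC libraries and 102853 and 109090 in the high-MYC libraries, and read depth is unknown. Myc itself measured 9.81 and 9.86 in low-MYC cells and 20.3 and 20.5 in high-MYC cells. All 12 fibroblast markers were detected, with a summed level of 403 to 409 in low-MYC and 989 to 1017 in high-MYC libraries. Macrophage markers moved with the sort: their summed level was 0.945 to 1.30 in low-MYC and 29.7 to 31.0 in high-MYC libraries, with 10 of 12 tested and all 10 higher. The part of these cells in the chaperone levels was not tested, and in such bulk RNA fewer cells of a type and less RNA per cell cannot be told apart.

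Of the 80 members, 72 averaged 0.1 or more across the libraries and were tested with limma on log2(normalized FPK + 0.1). The other 8, Cct6b, Dnajb13, Dnajc6, Dnajc17, Dnajc22, Hspa12a, Hspa1l and Hspb9, had means of at most 0.0689. Several of these are known from testis or brain. A mean of at least 10 was reached by 16 members, 34 lay between 1 and 10, and 22 between 0.1 and 1. The 5 most abundant genes held 62.4% of the summed chaperone level.

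All 72 tested members rose per cell. On the spike-in scale each had an adjusted p under 0.01 by limma with Benjamini-Hochberg adjustment, and none fell. This follows the whole transcriptome: 97.1% of tested genes were called higher and 0.0253% lower by the same rule. Hspa1a and Hspa1b, the pair that the symbol rule leaves out, were both among the 3 genes called lower. That no member fell therefore depends on leaving this pair out. No tested member had overlapping groups, a pattern that 99% of all tested genes shared. The count at 2-fold or more was 48 of 72 members (66.7%) against a background of 55.1%. Since the pseudocount understates low genes, the members with a mean of at least 1 are the closer comparison, and there 42 of 50 (84%) stood beside 85.1% of all such genes. The median log2 fold change was 1.07 over the members and 1.03 over all tested genes. As a ratio of mean levels without a pseudocount, high-MYC over low-MYC ran from 1.80 for Hspb1 to 3.04 for Hspb7, with a median of 2.17 against 2.26 for all tested genes. The share of the library taken by the 80 genes was 1.37% in both low-MYC libraries and 1.33% and 1.35% in the high-MYC libraries.

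**Figure D1:**
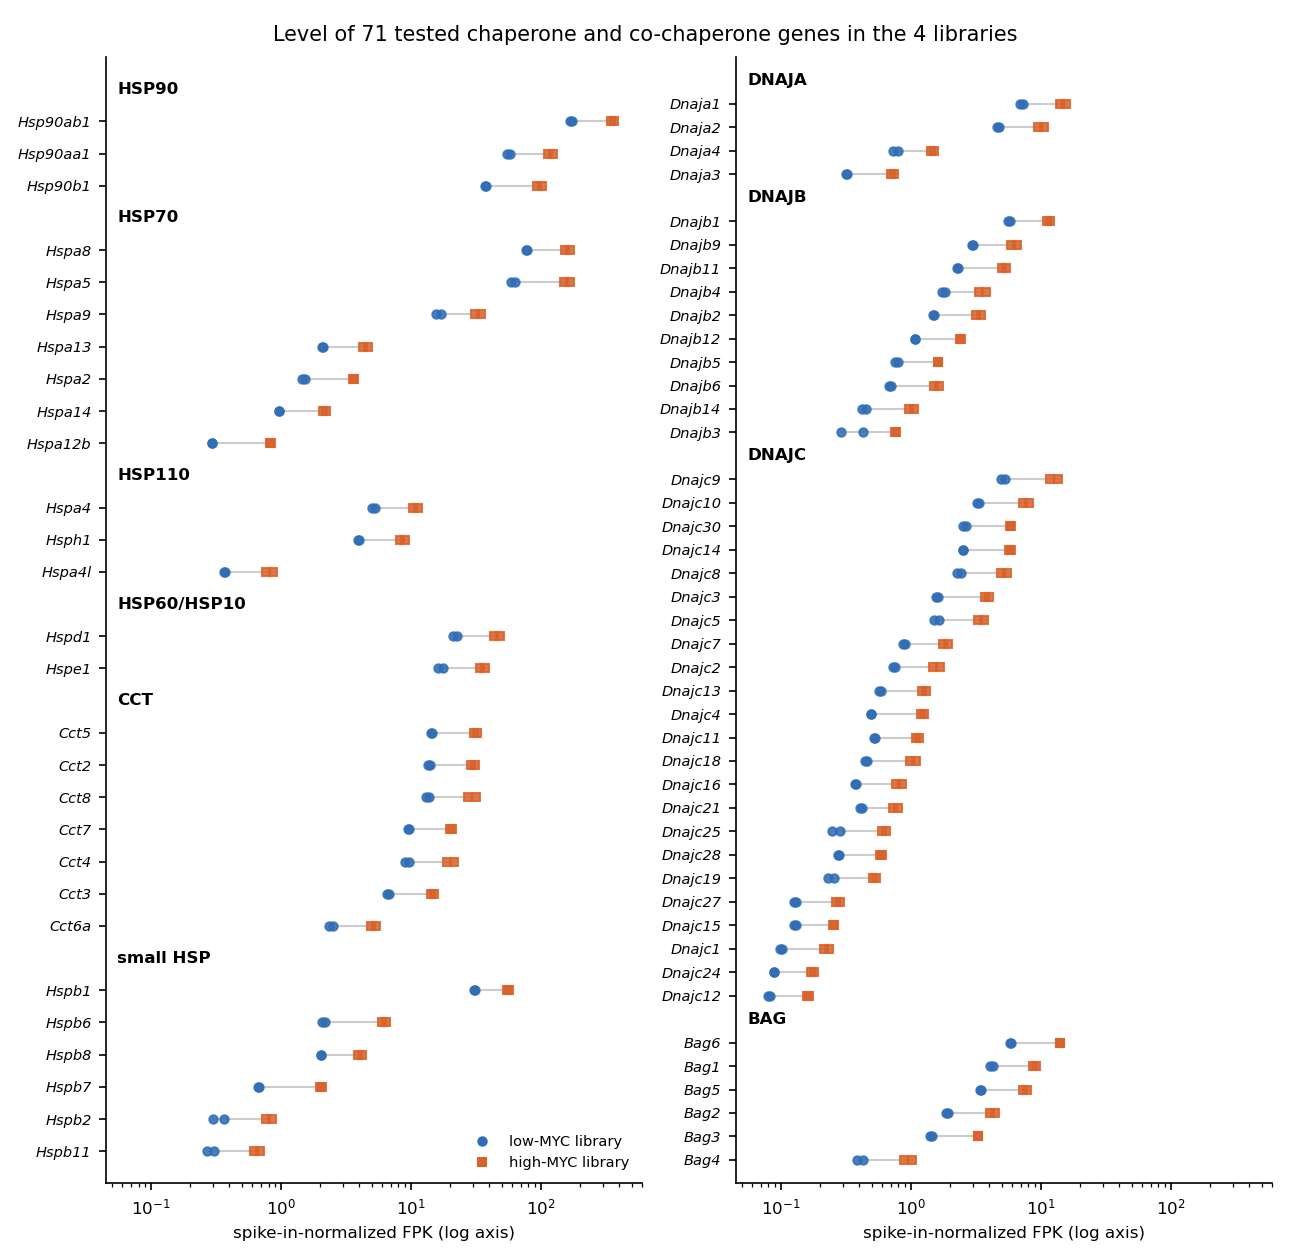
Spike-in-normalized FPK (log axis) of 71 of the 72 tested members, grouped by family and ordered by mean level, with circles for the 2 low-MYC and squares for the 2 high-MYC libraries. In every row both squares lie to the right of both circles, and the distance between them changes little over a range of means from 0.121 to 261.8.

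Of all members, Hsp90ab1, the constitutive cytosolic HSP90, had the highest level. It measured 166 and 172 in the low-MYC libraries and 347 and 363 in the high-MYC libraries. Its inducible partner Hsp90aa1 measured 55.0 and 57.9 against 112 and 123. The ER paralog Hsp90b1 measured 37.1 and 37.8 against 92.3 and 102. The groups were apart in each of the 3 genes, and the ratio of means was 2.10 for Hsp90ab1 and 2.09 for Hsp90aa1 but 2.60 for Hsp90b1. Trap1, the mitochondrial HSP90, which the symbol rule does not take, had a ratio of 2.55.

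In the HSP70 family the ER gene Hspa5 likewise rose more than the cytosolic Hspa8. The division was not one of compartment, since Hspa13, also of the ER, had a ratio of 2.15, below the 2.26 of the median gene. Hspa8, the constitutive cytosolic HSC70, measured 76.5 and 78.6 in low-MYC and 153 and 166 in high-MYC cells. Hspa5 measured 59.1 and 62.9 against 151 and 168. Hspa5 therefore lay below Hspa8 in both low-MYC libraries, while in high-MYC cells the ranges of the pair overlapped, with means of 159.5 and 159.6. The ratio of means was 2.06 for Hspa8 and 2.62 for Hspa5. Hspa9, the mitochondrial HSP70, rose from 15.7 and 16.9 to 31.1 and 34.6, a ratio of 2.02. Hspa2, a paralog best known from spermatogenesis, was low, at 1.44 and 1.52 against 3.64 and 3.56. Hspa12b, a distant relative known from endothelium, measured 0.293 in both low-MYC libraries and 0.822 and 0.833 in the high-MYC libraries, and its ratio of 2.82 was the highest of the family. Of 4 endothelial markers, Kdr alone passed the minimum, Pecam1 and Cdh5 were near 0, and their summed level was 0.172 to 0.175 in low-MYC and 0.282 to 0.327 in high-MYC libraries; the part of such cells in Hspa12b was not tested.

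Small heat shock proteins held both the lowest and the highest ratio of means among tested members. Hspb1, by far the most abundant of them, measured 30.4 and 31.2 in low-MYC and 56.5 and 54.6 in high-MYC libraries, and its 1.80-fold rise was the smallest of all tested members. Hspb8, which works with BAG3 in selective autophagy, measured 2.02 and 2.03 against 3.93 and 4.17. At the other end stood a pair known from heart and muscle. Hspb6 measured 2.07 and 2.17 in low-MYC and 6.38 and 6.02 in high-MYC libraries, a ratio of 2.92, and Hspb7 measured 0.674 and 0.664 against 1.99 and 2.07, a ratio of 3.04. Of the skeletal muscle markers Des and Acta1 were in the table, and their summed level was 9.71 to 9.83 in low-MYC and 14.4 to 14.5 in high-MYC libraries, a ratio of 1.48 (1.36 for Acta1 and 2.004 for Des). The part of such cells in Hspb6 and Hspb7 was not tested. Hspb2 overlaps Cryab on the opposite strand and measured 0.300 and 0.362 against 0.854 and 0.768.

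The chaperonins moved as blocks. TRiC folds actin and tubulin, and its 7 measured subunits that carry a Cct symbol had ratios of means between 2.12 (Cct7) and 2.20 (Cct8). Tcp1, the remaining subunit, which the symbol rule does not take, had a ratio of 2.23. Hspd1 and Hspe1, whose starts lie 111 bases apart on opposite strands and which make the chamber and the lid of the mitochondrial chaperonin, measured 21.1 and 22.4 against 43.4 and 48.2, and 16.1 and 17.5 against 34.0 and 36.9. Both ratios were 2.11. Reads of Hspd1, Hspa9 and Dnajc19 may be shared with their pseudogenes.

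J-domain proteins were the largest group, with 4 DNAJA, 10 DNAJB and 23 DNAJC genes tested. Dnajb1, the HSP40 that pairs with HSC70 in the cytosol, measured 5.55 and 5.82 in low-MYC and 11.2 and 11.8 in high-MYC libraries, and Dnaja4 measured 0.727 and 0.798 against 1.42 and 1.497. Dnajc21, a factor of ribosome biogenesis, measured 0.408 and 0.418 against 0.724 and 0.798, and its ratio of 1.84 came next above that of Hspb1. The largest rise of the group on the log2 scale was that of Dnajc9, a histone chaperone, from 4.96 and 5.27 to 11.8 and 13.6. The ER proteins Dnajc10, a disulfide reductase, and Dnajc3 measured 3.22 and 3.33 against 7.29 and 8.15, and 1.57 and 1.63 against 3.70 and 4.02. The groups were apart for each of these genes.

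The smallest log2 fold changes on the spike-in scale, from 0.53 to 0.88, came mostly from DNAJC genes of low level, where the pseudocount weighs. Dnajc12 measured 0.0792 and 0.0830 in low-MYC and 0.159 and 0.163 in high-MYC libraries, Dnajc24 0.0878 and 0.0877 against 0.171 and 0.181, and Dnajc1 0.0980 and 0.102 against 0.214 and 0.235. Dnajc27 measured 0.131 and 0.125 against 0.264 and 0.284, and Dnajc15, of the mitochondrial import motor, 0.130 and 0.126 against 0.257 and 0.250. Dnajc19, of the same motor, measured 0.232 and 0.256 against 0.514 and 0.534, and Dnajc28 0.280 and 0.273 against 0.583 and 0.604. Their ratios of means nevertheless lay between 1.98 and 2.25, close to that of the median gene.

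The BAG genes rose by ratios from 2.14 for Bag1 to 2.41 for Bag6. Bag6, a guard of membrane proteins on their way to the ER, measured 5.85 and 5.75 in low-MYC and 14.0 in both high-MYC libraries. Bag3, an HSF1 target, rose from 1.40 and 1.46 to 3.28 in both. All 6 exceeded 2-fold.

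Hspa1a and Hspa1b, outside the rule, went the other way, with 2.23 for Hspa1a in both low-MYC libraries against 1.59 and 1.80, and 5.45 and 5.63 for Hspa1b against 4.26 and 4.77. On the spike-in scale their log2 fold changes were -0.38 and -0.29 (adjusted p 0.0024 and 0.0060 by limma with Benjamini-Hochberg adjustment). On the log2 scale the pair fell relative to the median gene by 1.499 and 1.45, whereas the lowest member, Hspb1, stood at -0.33.

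To ask which chaperones rose more or less than the typical gene, each library was divided by its median over tested genes, which moved the median change over the tested genes from 1.03 to -0.00 (log2). The size of this move depends on the level of a gene, since the pseudocount weighs on low ones. On this scale limma with Benjamini-Hochberg adjustment called 0 of 72 members at an adjusted p under 0.01 in either direction, where it called 1.76% of all tested genes higher and 0.531% lower. At an unadjusted p under 0.05, 7 members (9.72%) were higher and 15 (20.8%) lower, against 17.3% and 15.8% of all genes. At an adjusted p under 0.05, a looser rule, 5 members were higher and 5 lower (6.94% each), against 7.84% and 5.08% of all genes. In either direction this made 10 members (13.9%) against 12.9% of all genes. The shares at an adjusted p under 0.05 lie near the background, while the unadjusted share was below it for higher members and above it for lower ones. The members' median was -0.05, and 51 of 72 (70.8%) lay below 0, against 51.5% of all tested genes. The count was 46 with libraries scaled to the same sum and 53 with the same 75th percentile.

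The 5 higher members were Hspb7 at 0.39 ± 0.03 (log2 fold change ± SE), Hspb6 at 0.36 ± 0.07, Hspa12b at 0.27 ± 0.04, Hspa5 at 0.21 ± 0.04 and Hsp90b1 at 0.20 ± 0.03. The 5 lower members were Hspb1 at -0.33 ± 0.05, Dnajc21 at -0.26 ± 0.03, Dnaja4 at -0.22 ± 0.04, Hspb8 at -0.17 ± 0.03 and Dnajb1 at -0.16 ± 0.03. The smallest adjusted p was 0.0105, for Hspb7, by limma with Benjamini-Hochberg adjustment. These calls were not firm. In fits that kept all libraries, Hspb7 alone stayed under 0.05 in every one (adjusted p 0.0010 to 0.034 by limma with Benjamini-Hochberg adjustment). Each of the other 9 lost the call in at least 1 fit, among them Dnaja4 in 5 of 8, Hspa5 in 4 of 8, and Dnajb1, Hsp90b1 and Hspb6 in 3 of 8. With 1 library left out, 8 of the 10 were never under 0.05, and Hspb1 and Hspb6 were so in 1 of 4 fits each, Hspb1 without high-MYC replicate 1 and Hspb6 without high-MYC replicate 2. With genes under a mean of 1 left out, Hspb6 and Hspb7 passed the stricter threshold as higher and Hspb1 as lower.

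**Figure D2:**
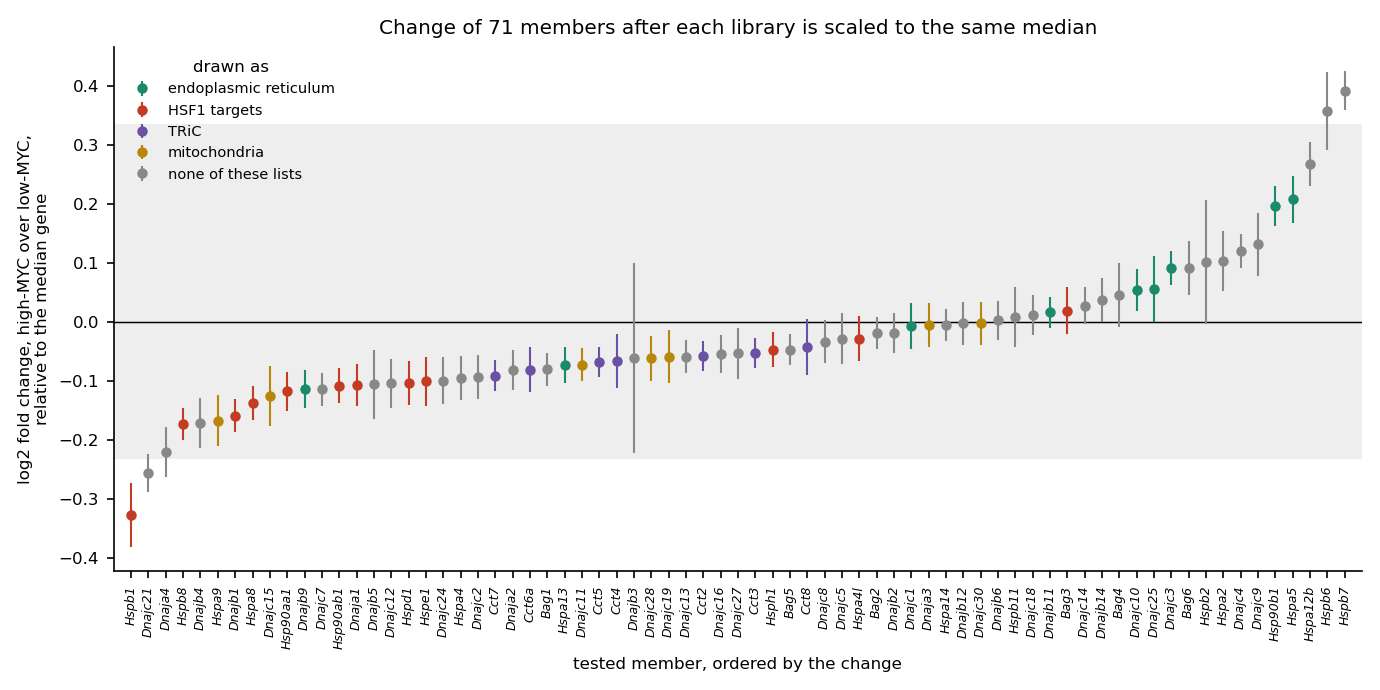
Log2 fold change of high-MYC over low-MYC relative to the median gene for 71 of the 72 tested members, ordered from lowest to highest, with bars of 1 SE and a grey band for the range that holds all tested genes but the lowest and highest 5%. Hspd1 and Hspe1 are on both the HSF1 and the mitochondrial list and are drawn with the former; 4 members lie outside the band, Dnajc21 and Hspb1 below it and Hspb6 and Hspb7 above.

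Members were next grouped by place in the cell. Of the 9 ER members, 6 lay above 0 on the relative scale with a median of 0.05, where the median of all genes was -0.00. Hspa5 and Hsp90b1 led, Dnajc3 followed at 0.09, and Dnajc25, Dnajc10 and Dnajb11 were between 0.02 and 0.05. Dnajb9 at -0.11, Hspa13 at -0.07 and Dnajc1 at -0.01 lay below 0. Scaled to the same median, Hspa5 measured 97.5 and 101 in low-MYC against 112 and 117 in high-MYC libraries, and Hsp90b1 61.3 and 61.1 against 68.6 and 71.6. In neither gene did the groups overlap, but how many of all genes share this pattern on the scaled values was not counted. The 3 members with an ER stress element in the promoter were all above 0.

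Genes of ER folding and of the unfolded protein response, its transcription factors included, that the symbol rule does not take were counted beside them. Of 17 tested, 12 lay above 0 with a median of 0.11. At an adjusted p under 0.05 by limma with Benjamini-Hochberg adjustment, 4 were higher, namely Calr at 0.21, Sdf2l1 at 0.19, Xbp1 at 0.18 and Pdia4 at 0.15, and 2 were lower, Atf4 and Ddit3, both at -0.35. The same rule called 7.84% of all tested genes higher and 5.08% lower. Calr encodes the lectin chaperone calreticulin and Xbp1 a transcription factor of the unfolded protein response, whereas Atf4 and Ddit3 belong to its branch that is shared with amino acid and oxidative stress. None passed the threshold of 0.01.

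The members listed as HSF1 targets lay mostly below the median gene. Of 12, 11 (91.7%) were below 0, with a median of -0.11, against 70.8% of all tested members and 51.5% of all tested genes. This was not particular to them. TRiC, mitochondrial members and the cytosolic genes outside the rule, given below, lay below 0 at least as often. Of the 11, Hspb1, Hspb8 and Dnajb1 had an adjusted p under 0.05, a rule that called 5.08% of all tested genes lower. The call of Dnajb1 was lost without the trend, with the replicate block, with no minimum mean and with each library left out. Bag3 at 0.02 was the exception. Scaled to the same median, Hspb1 measured 50.3 and 50.4 in low-MYC against 42.1 and 38.2 in high-MYC libraries, Dnajb1 9.16 and 9.39 against 8.31 and 8.28, and Hspa8 126 and 127 against 114 and 116. The groups did not overlap in any of the 3, a pattern whose share among all genes on the scaled values was not counted. Hsf1 itself, outside the rule, was at -0.06 ± 0.04. Tested members with a 2-unit heat shock element had a median of -0.07, and the 41 that had a promoter sequence without one stood at -0.03. Both Dnajb6, at 0.00, and Hspb6, at 0.36, were among those with an element. Hspa8, Hsp90aa1 and Hsp90ab1, at -0.14, -0.12 and -0.11, had no promoter sequence and are in neither set.

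**Figure D3:**
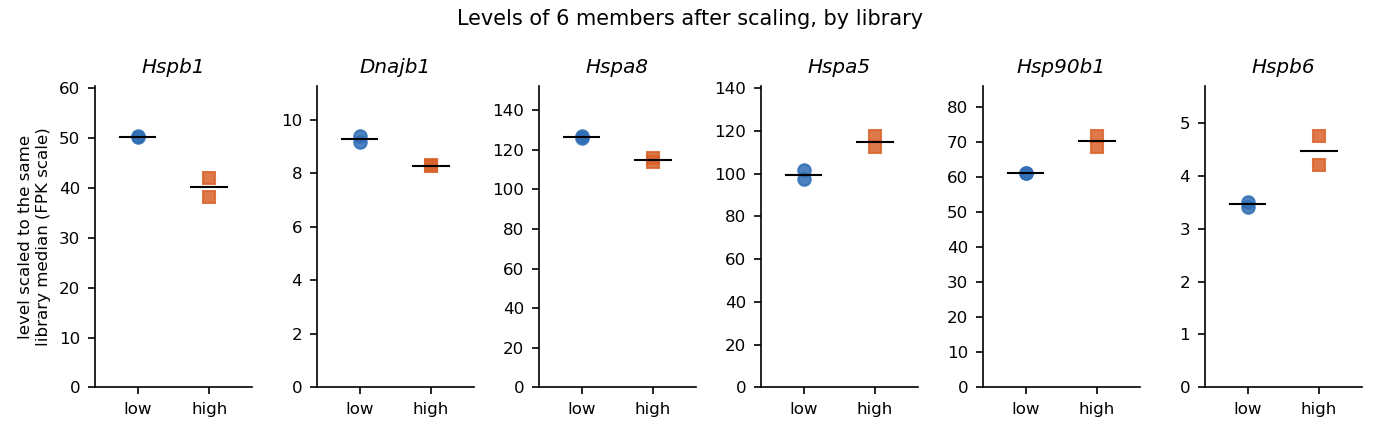
Level of 6 members in each library after scaling to the same library median (FPK scale, axes from 0), with circles for low-MYC and squares for high-MYC libraries and a line at each group mean. Hspb1, Dnajb1 and Hspa8 are lower and Hspa5, Hsp90b1 and Hspb6 higher in both high-MYC libraries.

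TRiC subunits were tightly grouped. All 7 lay below 0, as did 70.8% of all tested members and 51.5% of all tested genes. They stood between -0.09 and -0.04, and none passed an adjusted p of 0.05. The subunits of 1 complex thus varied less among themselves than the small heat shock proteins, which ran from -0.33 to 0.39. All 9 mitochondrial members were below 0 as well (7 of 9 with libraries scaled to the same sum), from -0.17 for Hspa9 to -0.00 for Dnajc30, again with none past 0.05, and so were 5 of 6 mitochondrial folding genes outside the rule. Trap1, the mitochondrial HSP90, stood at 0.16 and was counted in the next list, not with these 6. Of the 27 genes outside the rule listed as cytosolic co-chaperones and regulators, 25 were below 0 (23 with the same sum), with a median of -0.06. Among them Hsf2 at -0.20 and the prefoldin subunit Pfdn2 at -0.14 had an adjusted p under 0.05 by limma with Benjamini-Hochberg adjustment.

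Summed levels gave the same picture as shares of the library. The 12 HSF1 targets took 0.832% and 0.829% of the summed level of all genes in low-MYC and 0.766% in both high-MYC libraries. The 9 ER members took 0.234% and 0.235% against 0.263% and 0.275%. TRiC took 0.147% in both low-MYC libraries against 0.140% and 0.144%, and the mitochondrial members 0.123% and 0.126% against 0.114% and 0.118%. With 2 libraries per group these sums carry no test. The most abundant genes dominate them, Hsp90ab1 and Hspa8 in the first list and Hspa5 and Hsp90b1 in the second. Hspd1 and Hspe1, the most abundant mitochondrial members, are counted in both the HSF1 and the mitochondrial sums, so these 2 lists are not separate.

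**Figure D4:**
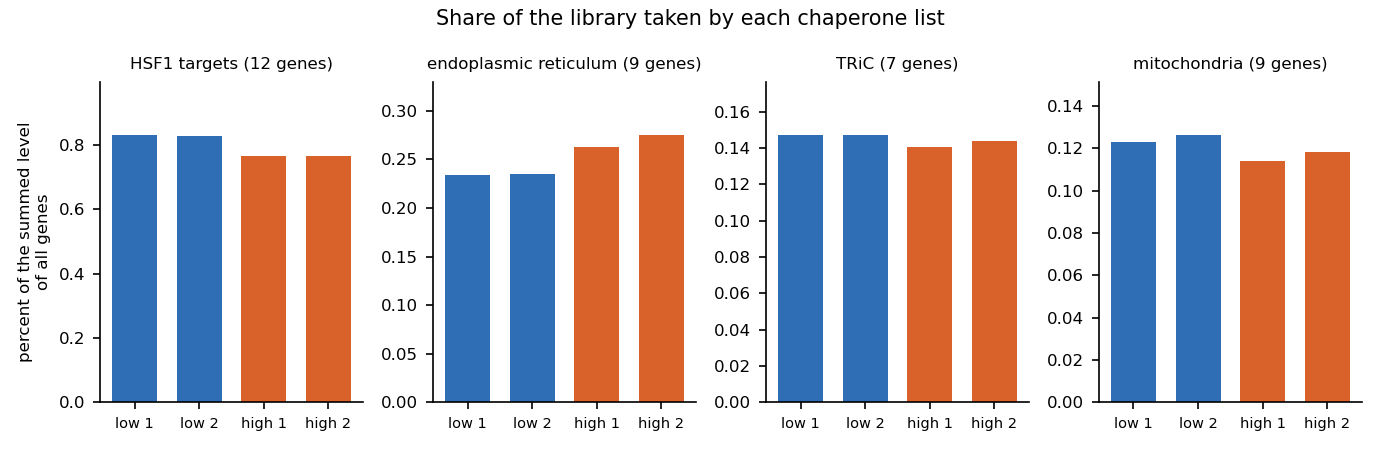
Percent of the summed level of all genes taken by each list of members in each library (bars from 0, own axis per list). The ER list is higher and the other 3 lists lower in both high-MYC libraries than in both low-MYC libraries. Hspd1 and Hspe1 are in both the HSF1 and the mitochondrial list.

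Position added further detail. Another gene of the table overlapped 28 members, 24 of them on the opposite strand. The library kit keeps strand, but whether the quantification used it is not stated, so the values of these members are uncertain. A further arrangement, a head-to-head gene that did not overlap the member and started within 1000 bases, was found for 17 members, and 11 had an overlapping gene on the opposite strand that started as close. Among the 17 was Dnajb4, whose start lies 120 bases from that of Fubp1, the gene of the single-strand DNA-binding protein that the study examined at Myc. Dnajb4 (chr3:152178511-152210302) measured 1.75 and 1.83 in low-MYC and 3.35 and 3.81 in high-MYC libraries, and Fubp1 (chr3:152210422-152236826) 1.74 and 1.83 against 3.36 and 3.74. The values of the pair differed by at most 1.85% in any library, and on the relative scale they stood at -0.17 and -0.18. Neither change passed an adjusted p of 0.05 (0.076 and 0.052 by limma with Benjamini-Hochberg adjustment). The pair was picked for Fubp1, its match was not compared with that of the other pairs, and a shared control was not tested.

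The FUBP1 ChIP-seq list used here, from a single sample of primary MEFs, holds 166 peaks on chromosome 15. Of the 3 members there, Cct5, Dnajc21 and Dnajc22, none was overlapped by a peak, against 55 of 408 tested coding genes on the chromosome (13.5%). With 3 genes this says little about the members.

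Accessible chromatin was available as a table of 4881417 TACh-seq reads. The labels of all 4 TACh-seq samples, WT and KOKD, name this same table, its name points to a WT sample, and no column gives the library, so the genotype of the cells behind the reads is not known. Reads within 500 bases of the start were present for 61 of 72 tested members (84.7%), against 84.3% of tested coding genes, with a median of 149 reads against 110. All 16 members with a mean of at least 10 had reads, from 74 at Hspb1 to 460 at Hspa8, against 88.6% of coding genes of that level, with medians of 179 and 128. Hsp90b1 had 446 and Hspa5 226, whereas Hspb7 had 0 and Hspb6 287. The reads lie in limited regions, so a gene without reads is not thereby shown to be closed.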

How the data were processed

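RNA libraries of sorted MEFs (2 low-MYC and 2 high-MYC), a FUBP1 ChIP-seq peak list and a TACh-seq read table were used. For RNA, the authors removed poor 3′ ends, mapped reads to mm10 transcripts with TopHat, estimated abundance in Partek by expectation-maximization, and scaled for transcript length and for spike-ins, using the geometric mean over 10 ERCC transcripts that had been added by cell count. The deposited signal values are these normalized FPK. Versions of TopHat and Partek are not given in the sources used here. This step splits reads among near-identical genes. The deposited TACh-seq table gives read positions and a mapping score, with no column for the library. All 4 samples are labelled with this table, whose name points to WT, so WT and KOKD MEFs were not compared. The FUBP1 list was called with SICER after alignment with Bowtie2, per the labels, and gives positions only.

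From the RNA values, log2(normalized FPK + 0.1) was compared with limma 3.58.1 (lmFit, eBayes with trend, R 4.3.3) over all 11870 genes with a mean of at least 0.1, with Benjamini-Hochberg adjustment. The same test was run after each library was scaled to the same median. Genes were called at an adjusted p under 0.01. The procedure was tested on simulated data. Members given by library were the 10 smallest and 10 largest changes on the spike-in scale, the 5 highest levels and those past a threshold relative to the median gene; other members are examples. Of the tested members, 1 enters the counts but is not reported here by itself. Members, lists and tests were chosen with earlier results of these data known. Replicate numbers were taken from the labels; deviations of same-numbered libraries correlated at r = 0.0776 across genes, so the numbers were not taken to pair the libraries. Positions of 79 members matched GENCODE M21, and gene ends, which lie 1 base past the annotation in the table, were corrected. Promoter sequences are those of RefSeq (GRCm38.p6), and 16 members had none in the table. Alternatives covered the pseudocount, minimum mean, library scaling, limma trend, replicate block, threshold and each library left out. Python 3.11.15, pandas 2.3.3, numpy 2.4.6 and matplotlib 3.10.9 were used.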

Additional observations from a re-analysis of the deposited data

How the results depend on the processing

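On the spike-in scale, all tested members stayed higher under every alternative that kept this scale, except that 73 of 80 were called without a minimum mean. Members at 2-fold or more numbered 17 with a pseudocount of 1 (1448 of all genes, median member change 0.83), and all genes numbered 10076 with a pseudocount of 0.01. Leaving out each library in turn gave 38 to 59 members and 5683 to 7374 genes, with a median of 1.00 to 1.13; the lone library of a group is then assumed to vary like the other group. Scaled to the same median, 0 members and 68 genes passed 2-fold, 0 members were higher at any fold, and the median became -0.054. Of the named members, Dnaja4 (-0.22), Dnajb1 (-0.16), Dnajc1 (-0.0068), Dnajc12 (-0.10), Dnajc15 (-0.13), Dnajc19 (-0.059), Dnajc21 (-0.26), Dnajc24 (-0.10), Dnajc27 (-0.054), Dnajc28 (-0.062), Hsp90aa1 (-0.12), Hsp90ab1 (-0.11), Hspa8 (-0.14), Hspb1 (-0.33) and Hspb8 (-0.17) changed sign with that scaling, by its construction. Relative to the median gene, Dnajc1 turned to 0.0027 with the same sum, and ran from -0.020 to 0.0065 with each library left out, the latter without high-MYC replicate 1. At an adjusted p under 0.05, 5 members were higher and 5 lower (931 and 603 of all genes). With a minimum mean of 1, where fewer genes are tested, 4 members were higher and 7 lower by that rule (630 and 637 of all genes). The calls that follow are at an adjusted p under 0.01 unless another threshold is named. With a minimum mean of 1, 2 members were higher and 1 lower (318 and 213 of all genes), and with no minimum 64 and 7 of all genes. With the same 75th percentile 1 member, Hspb7, was higher. The median of the members was -0.026 with a pseudocount of 1. At an adjusted p under 0.05, the fit with the replicate block called 937 genes higher and 572 lower relative to the median gene, where the fit without it called 931 and 603. At an adjusted p under 0.01 the block fit called 0 genes higher and 0 lower, where the fit without it called 209 and 63. It left the 48 members at 2-fold on the spike-in scale at 48. Relative to the median gene, each library left out gave 0 to 11 genes higher and 0 lower, and no member in either direction. The cause of these differences was not tested. The main limits are 2 technical replicates per group, a read depth that is unknown, and the 8 members with means under 0.1, which the main test left out.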

Other observations

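Genes outside the chaperone families that share the same promoter letters were also looked at, as a description chosen after the values of the members were seen. The ER stress element stood in a promoter of 34 such genes, of which 11 were tested. On the scale relative to the median gene their log2 fold changes had a median of 0.06, with 8 above 0 and 3 below. Calr, the lectin chaperone of the ER, stood highest at 0.21 ± 0.03 (SE), followed by Creld2 at 0.16 ± 0.03, a disulfide isomerase, and Syvn1 at 0.11 ± 0.03, a ubiquitin ligase of ER-associated degradation. Canx, which encodes calnexin, was at -0.02 ± 0.03 and Zfp57 at -0.22 ± 0.08. Only Calr had an adjusted p under 0.05 by limma with Benjamini-Hochberg adjustment.

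The 3-unit heat shock element stood in a promoter of 175 genes outside the families, of which 43 were tested. Their median was -0.01, with 19 above 0 and 24 below. At an adjusted p under 0.05 in the same limma fit, 2 were higher, Slc6a17 at 0.33 and Uchl1 at 0.27, and 2 were lower, Nnat at -0.38 and Krt20 at -0.20. Chordc1, a co-chaperone of HSP90, was at -0.13 ± 0.04 and did not pass.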
